A study of Mus musculus with 6 samples.

Results

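The genes described are 10 that encode peptides and peptide receptors of the spinal dorsal horn: neuropeptide Y (Npy) and its receptors Npy1r and Npy2r, somatostatin (Sst) and its receptors Sstr1 and Sstr2, and the peptides cholecystokinin (Cck), neurotensin (Nts), neuromedin U (Nmu) and thyrotropin-releasing hormone (Trh). They were taken by mouse symbol from the 54532 Ensembl identifiers of each expression file, and each symbol matched 1 identifier. RNA came from the cervical spinal cord of C57BL/6 mice. Allergic contact dermatitis (ACD) had been raised in 3 of them with squaric acid dibutylester (SADBE), a skin sensitiser, and the other 3 were controls. The protocol put 20 µl of 1% SADBE on abdominal skin on 3 days. After 5 days SADBE was given on the nape on 3 days in the ACD mice, and acetone in its place in the controls; whether the controls had also been sensitised is not clear from the protocol. The labels state no age, sex or time of dissection. The labels call the libraries biological replicates, so each was taken as 1 mouse.

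Dorsal horn peptides are cut from longer precursors, stored in dense-core vesicles and released from interneurons onto G protein-coupled receptors. Npy is made by inhibitory interneurons, and Npy1r lies largely on excitatory interneurons that pass on touch-evoked itch and pain signals; Npy2r lies largely on primary afferents, whose cell bodies are outside the cord. Sst marks a large class of excitatory interneurons, and the peptide acts through the inhibitory receptors Sstr1 to Sstr5, in part by silencing inhibitory neurons that hold itch back. Cck, Nts and Nmu mark other excitatory interneurons of the deeper and middle laminae, and Trh is made by smaller sets of cord neurons and by descending fibres, whose transcripts stay mostly in the brainstem.

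The promoters were searched for the cAMP response element, the DNA site through which cAMP and calcium signals act by way of the factor CREB, first defined in the Sst promoter. The sequences are shown so that members with a match can be set beside members without one. RefSeq promoters (GRCm38.p6) were matched for 9 of the 10 genes, and Sstr1 had none to search. In the 250 bases before the RefSeq start, the full element TGACGTCA, which reads the same on both strands, was found in Sst and Sstr2, and in 1.55% of all 32851 promoters. Its core TGACG, searched on both strands and also contained in the full element, was found in 6 of the 9 and in 17.8% of all promoters. Windows of 30 bases follow, 5′ to 3′ on the strand of the gene, with the match in capitals (CGTCA is the core on the other strand). The match starts 48 bases before the start in Sst, 58 in Sstr2, 47 in Cck, 166 in Nts, 114 in Nmu and 96 in Trh. The Sst window lies inside the GENCODE span of the gene, which begins upstream of the RefSeq start; the other windows lie outside theirs. A match of letters is a description and not a shown binding site.
Sst, chr16:23890874-23890903, minus strand: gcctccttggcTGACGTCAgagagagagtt
Sstr2, chr11:113619258-113619287, plus strand: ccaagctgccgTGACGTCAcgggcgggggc
Cck, chr9:121495724-121495753, minus strand: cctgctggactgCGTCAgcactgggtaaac
Nts, chr10:102490567-102490596, minus strand: attagggaagatCGTCActttccatcaagg
Nmu, chr5:76363874-76363903, minus strand: agcaggtccgggTGACGccagggagccagg
Trh, chr6:92244729-92244758, minus strand: ccccggctctgcCGTCAgcgcccctgcatt

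Values are FPKM, which are per exon length, and the reads behind them were recovered from the steps between low values. The scaled library size implied by the FPKM was 16916594 to 18583998 in the controls and 17346314 to 20245572 in the ACD libraries. The recovered reads summed to 16517301 to 18915346 in the controls and 18525474 to 21487892 in the ACD libraries. Of 21369 genes tested, 386 were higher and 541 lower in ACD at an adjusted p of 0.05, or 4.34% in all; after scaling each library to TPM the split was 205 higher and 695 lower. The 8 neuronal markers of the labelled tissue summed to 834 to 1026 FPKM in controls and 1039 to 1052 in ACD, while the nociceptor channels Scn10a and Trpv1 were at 0.117 FPKM or below in every library. Libraries of the groups also differed in other RNA: the 6 Schwann cell markers, of which none was at 0, summed to 171 to 257 FPKM in controls and 347 to 484 in ACD, the 5 blood genes to 100 to 389 and 481 to 772, the 7 astrocyte markers to 753 to 868 and 969 to 1039, the 6 microglia markers to 71.9 to 88.7 and 90.4 to 99.4, and the 6 nuclear non-coding RNAs to 362 to 411 and 114 to 156. Among these astrocyte and microglia markers Gfap (adjusted p = 0.0332) and Tmem119 (adjusted p = 0.0394) rose, but Gfap kept its call only without control 2 (adjusted p = 0.0348) and Tmem119 only without control 3 (adjusted p = 0.0451) among the fits with 1 library left out, where the others gave 0.0518 to 0.129. The part of these differences in the results below was not tested. In bulk tissue fewer cells of a type and less RNA per cell cannot be told apart.

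In control cord Sst stood far above the other members, and the receptors were the lowest with Trh. Sst was at 93.3 ± 8.85 FPKM (SD, n = 3), higher than 98.3% of the genes tested. Cck followed at 21.6 ± 2.26, Nts at 17.5 ± 2.26 and Npy at 17.3 ± 1.28. The control ranges of Nts (14.9 to 18.9) and Npy (16.0 to 18.5) overlapped, so these neighbours did not differ beyond their spread; no other pair of neighbours overlapped. Nmu lay at 6.84 ± 1.15, Sstr1 at 4.69 ± 0.329, Sstr2 at 2.81 ± 0.00846 and Npy1r at 2.51 ± 0.240. Trh, at 1.60 ± 0.430, and Npy2r, at 0.945 ± 0.158, closed the order. In ACD cord the order of means was the same except that Npy, at 19.9 ± 2.93, stood above Nts, at 17.9 ± 3.81, and these ranges overlapped as well. In ACD the ranges of Nmu (5.08 to 10.9) and Sstr1 (5.38 to 6.36) overlapped too. So did those of Sstr2 (2.66 to 3.55) and Npy1r (2.47 to 3.32). Sstr1 was the highest of the 4 receptors in every library.

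**Figure D1:**
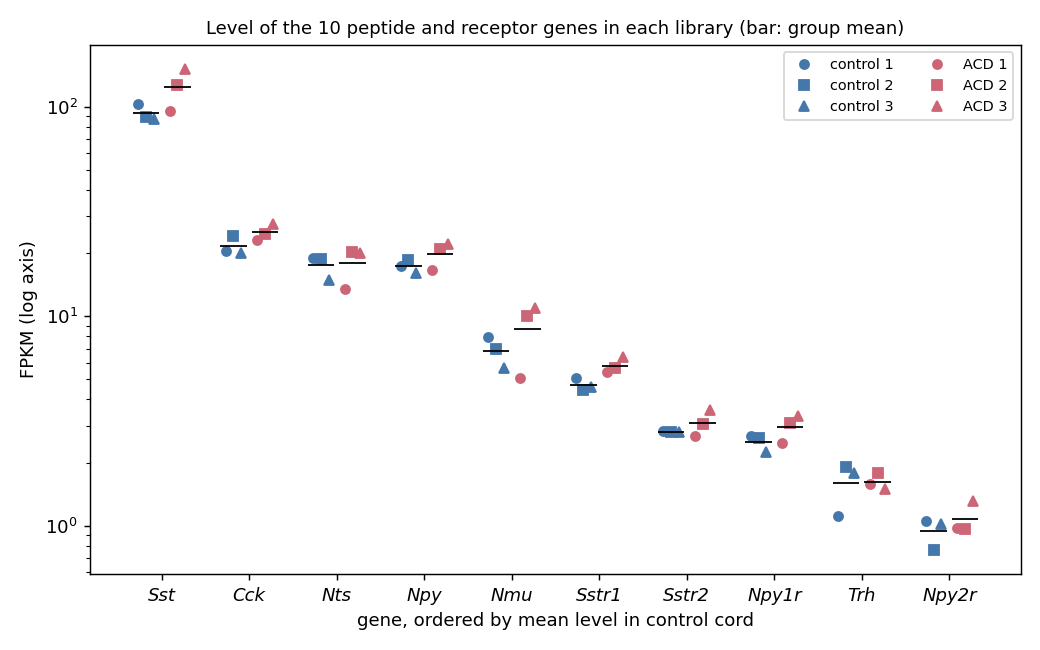
FPKM (log axis) of the 10 genes in each of the 3 control (blue) and 3 ACD (red) libraries, with a bar at each group mean. Sst lies between 87.2 and 152 FPKM and Npy2r between 0.763 and 1.31, and Sstr1 is the member whose ACD points all lie above its control points.

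The comparison asked which of these transcripts differ in the cord when the nape is inflamed. None of the 10 members passed the test (limma, adjusted p of 0.122 to 0.976), against a background of 4.34% of all genes tested. All 10 had a mean above the filter of 0.1 FPKM. All 10 fold changes were above 0, as are 48.6% over all genes. Their median was 0.21 on the log2 scale against -0.01 over all genes. After TPM scaling 8 of 10 were above 0, with Nts and Trh below. The median of the members was then 0.11 against -0.10 over all genes. Some marker lists of other cells lay to the same side. Above 0 were 8 of 8 pan-neuronal (median 0.16), 7 of 7 oligodendrocyte (0.31), 6 of 6 microglia (0.28) and 6 of 7 astrocyte markers (0.26). So were 6 of 6 Schwann cell markers (0.69) and 4 of 5 blood genes (0.96). The same held for 5 of 6 meningeal fibroblast (0.31) and 3 of 4 tested primary sensory neuron markers (0.31). Other lists did so less or not at all. Excitatory dorsal horn markers were above 0 in 9 of 14 (median 0.06) and inhibitory neuron markers in 10 of 13 (0.07). Motor neuron markers were above 0 in 4 of 8 (-0.02) and endothelial markers in 2 of 6 (-0.13). At an unadjusted p under 0.05 there were 2 members, Sst and Sstr1, where 22.3% of all genes reach that level; the count was 6 without ACD 1, and 0 without ACD 3 and after TPM scaling. Voom on the recovered reads also called no member. Sstr1 was the 1 member whose 3 ACD values all lay above its 3 control values, which holds for 13.1% of all genes.

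Npy and its receptor Npy1r had similar profiles over the libraries. Npy, on chromosome 6 at 49822710 to 49829507 (GRCm38), was at 17.4, 18.5 and 16.0 FPKM in controls 1 to 3 and at 16.6, 20.9 and 22.2 in ACD 1 to 3. ACD 2 and 3 were above every control and ACD 1 was within the control range. The log2 fold change was 0.19 (SE 0.12, adjusted p = 0.393), with a 95% interval from 0.941-fold to 1.38-fold, so a rise of more than 1.38-fold lies outside it. Npy1r, the receptor on excitatory interneurons, on chromosome 8 at 66697192 to 66706792, was at 2.67, 2.63 and 2.24 in controls and at 2.47, 3.09 and 3.32 in ACD. Again ACD 1 was within the control range and the other ACD libraries above it (0.22, SE 0.14, adjusted p = 0.390). Npy2r, on chromosome 3 at 82538383 to 82548084, was at 1.05, 0.763 and 1.02 in controls and at 0.971, 0.964 and 1.31 in ACD. Only ACD 3 was above the controls, and with 48 to 81 reads per library its interval ran from 0.824-fold to 1.55-fold (0.18, SE 0.19, adjusted p = 0.635).

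Somatostatin and its receptor Sstr1 had the largest fold changes for their error. Sst, on chromosome 16 at 23889573 to 23890958, was at 103, 89.3 and 87.2 FPKM in controls and at 95.6, 127 and 152 in ACD. The groups overlapped through ACD 1, which was below control 1. These values rest on 1090 to 2001 reads per library, so counting error is small beside the spread of the ACD mice. The log2 fold change was 0.40 (SE 0.16, adjusted p = 0.217), with an interval from 1.01-fold to 1.72-fold. Sstr1, on chromosome 12 at 58211772 to 58214444, was at 5.06, 4.42 and 4.59 in controls and at 5.38, 5.65 and 6.36 in ACD. Its groups did not overlap, and its adjusted p of 0.122 was the smallest of the 10 members (0.30, SE 0.09, interval 1.06-fold to 1.43-fold). Sstr2, on chromosome 11 at 113619342 to 113626028, the receptor of inhibitory interneurons, was at 2.81, 2.81 and 2.80 in controls and at 2.66, 3.04 and 3.55 in ACD. Its controls were nearly equal while ACD 1 lay below and ACD 2 and 3 above them (0.12, SE 0.12, adjusted p = 0.583). Of the 2 genes with the full TGACGTCA element, Sst was at 0.40 and Sstr2 at 0.12, and neither passed. The 3 genes of the Npy family, with no match to the core in their window, were at 0.18 to 0.22, within the range of 0.01 to 0.40 of the 6 genes with one. Sstr1, whose promoter was not searched, is in neither set.

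The other peptides showed smaller or less even differences. Cck, whose peptide opposes opioid analgesia, on chromosome 9 at 121489824 to 121495694, was at 20.4, 24.2 and 20.1 FPKM in controls and at 23.2, 24.7 and 27.5 in ACD. ACD 1 was below control 2, and ACD 2 and 3 were above every control (0.22, SE 0.10, adjusted p = 0.239, interval 0.993-fold to 1.37-fold). Nts, on chromosome 10 at 102481756 to 102490486, was at 18.9, 18.8 and 14.9 in controls and at 13.5, 20.1 and 20.0 in ACD. The lowest and the highest value were both in ACD, and the mean difference was near 0 (0.01, SE 0.17, adjusted p = 0.976, interval 0.761-fold to 1.34-fold). Nmu, on chromosome 5 at 76333495 to 76363788, was at 7.92, 6.95 and 5.64 in controls and at 5.08, 9.96 and 10.9 in ACD. Relative to its mean it had the widest spread of the members in ACD, from below every control to above every control, and the widest interval, 0.752-fold to 1.94-fold (0.27, SE 0.29, adjusted p = 0.621). Nmu shares 55 exonic bases with 4930432L08Rik on the opposite strand, which was at 0.215 FPKM or below in every library. Trh, on chromosome 6 at 92242061 to 92244650, was at 1.11, 1.91 and 1.79 in controls and at 1.583, 1.784 and 1.501 in ACD. All 3 ACD values lay within the control range, on 26 to 50 reads per library (0.05, SE 0.21, adjusted p = 0.914).

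**Figure D2:**
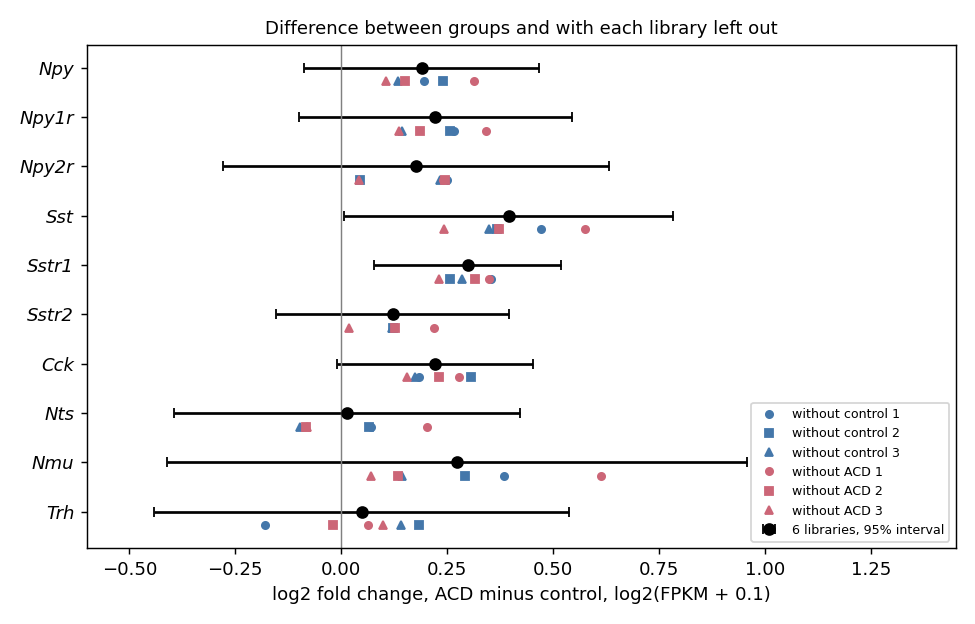
Log2 fold change of ACD minus control for the 10 genes on the log2(FPKM + 0.1) scale, with the 95% interval (black) and the value with each library left out (blue for a control, red for an ACD library). Only the intervals of Sst and Sstr1 lie above 0, and Nmu has the widest, from -0.41 to 0.96.

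ACD 1 and ACD 3 lay at opposite ends of the ACD group in most of these genes. ACD 1 was the lowest of the 3 ACD libraries in 8 of 10 members, where 36.5% of all genes tested have it lowest. In Npy2r ACD 2 was the lowest, and in Trh ACD 3 was. ACD 3 was the highest of all 6 libraries in 8 of 10 members, where 15.3% of all genes have it highest. With ACD 1 left out, the log2 fold change of Npy was 0.31, of Sst 0.57 and of Nmu 0.61, with adjusted p of 0.168, 0.0950 and 0.123. With ACD 3 left out they were 0.11, 0.24 and 0.07, the median of the 10 members was 0.10, and Sstr2 was at 0.019. Npy2r was at 0.043 without ACD 3 and at 0.044 without control 2. No member passed with any 1 library left out.

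Markers of other neurons differed between the same libraries. Against the control mean, the median of the 10 members was 0.10, 0.05 and -0.09 in controls 1 to 3 and -0.000896, 0.237 and 0.377 in ACD 1 to 3 on the log2 scale. The 14 excitatory dorsal horn markers had medians of 0.15, -0.06, -0.10, -0.18, 0.10 and 0.30 in the same order, with ACD 1 the lowest ACD library in 13 of 14. Motor neuron markers, which mark the ventral horn, had medians of -0.30, 0.03, 0.23, 0.22, -0.14 and -0.23, and ACD 1 was the highest ACD library in 6 of 8. Mnx1, a transcription factor of motor neurons, was at 1.31, 1.63 and 2.02 FPKM in controls and at 2.38, 1.19 and 1.04 in ACD. Chat, the acetylcholine-synthesising enzyme, was at 4.93, 5.81 and 7.93 and at 7.17, 5.34 and 4.81. Ache and Mmp9, of the same list, went the other way, with ACD 3 the highest ACD library. Ache was at 35.4, 33.6 and 44.1 in controls and at 42.8, 42.6 and 43.9 in ACD. Mmp9 was at 2.44, 3.76 and 3.86 and at 3.31, 3.32 and 3.77. Within both groups the library with the highest median of excitatory dorsal horn markers had the lowest median of motor neuron markers. This did not hold for the 14 inhibitory neuron markers. Their medians were 0.08, -0.21 and 0.12 in controls 1 to 3 and -0.10, 0.02 and 0.18 in ACD 1 to 3. Control 3 was thus the highest control for both inhibitory and motor neuron markers. ACD 1 was the lowest ACD library in 10 of 13 inhibitory markers tested. The summed motor neuron markers ranged from 103 to 150 FPKM in controls and from 119 to 161 in ACD, and none was at 0. Neither the excitatory nor the motor neuron list had a gene that passed. The part of the dorsal to ventral balance of the libraries in the members' values was not tested.

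**Figure D3:**
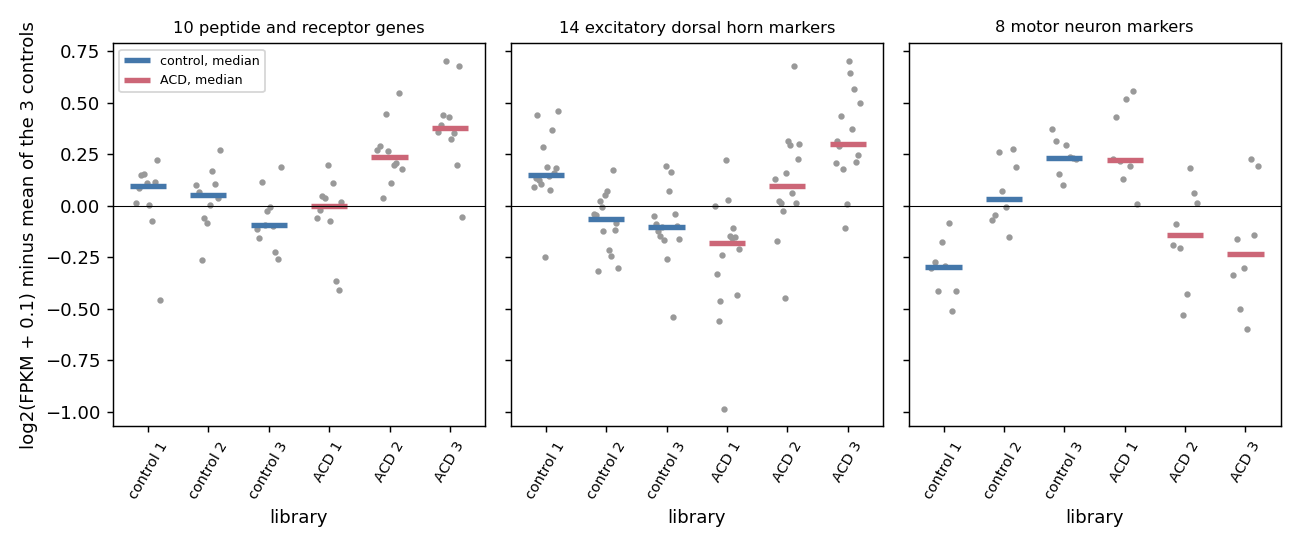
Log2(FPKM + 0.1) minus the mean of the 3 controls, by library, for the 10 members, 14 excitatory dorsal horn markers and 8 motor neuron markers; each point is a gene and each bar the median in that library. The members have medians of -0.09 to 0.10 in the controls and 0.24 and 0.38 in ACD 2 and 3, while the motor neuron markers are at -0.14 and -0.23 in those libraries.

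Genes with the most similar profile were ranked by Pearson correlation with Npy and with Sst over the 6 libraries, among 12148 other protein-coding genes that averaged at least 1 FPKM, as a description. Closest to Npy were Chchd6, a protein of mitochondrial cristae (r = 0.994), Dbndd1 (r = 0.989) and Pspc1, a paraspeckle protein (r = 0.980). Npy1r came next at rank 4 (r = 0.976), Nmu was at rank 31 (r = 0.926) and Sst at rank 71 (r = 0.901). Closest to Sst were Thap4 (r = 0.992), March4, a ubiquitin ligase (r = 0.991), and Nrgn, a calmodulin-binding protein of neurons (r = 0.989). Npy2r (r = 0.373) and Trh (r = 0.0608) were least like Npy among the members.

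Of 22 other genes of the 6 peptide families 15 were tested and none passed, with 13 of 15 above 0 and a median of 0.20. At an unadjusted p under 0.05 there were 2, Ntsr2 and Nms. Ntsr2, the neurotensin receptor that astrocytes express, was the highest G protein-coupled receptor of the families at 43.6, 45.2 and 54.6 FPKM in controls and at 54.7, 56.6 and 56.2 in ACD. Its groups met closely but did not overlap (0.23, SE 0.09, adjusted p = 0.203), and without control 3 it passed (0.33, adjusted p = 0.0417). Nms, which encodes neuromedin S, a ligand of the same receptors as Nmu, was at 1.00, 0.753 and 0.518 in controls and at 1.04, 1.13 and 1.69 in ACD (0.70, SE 0.27, adjusted p = 0.189). It rests on a mean of 18.7 reads.

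Among receptors, Npy5r was at 1.85, 2.32 and 1.74 FPKM in controls and at 2.19, 2.55 and 2.37 in ACD, a level between those of Npy1r and Npy2r (0.26, SE 0.14, adjusted p = 0.302). Cckbr, the main Cck receptor of the central nervous system, was at 4.64 ± 0.416 and 5.23 ± 0.363 (0.17, adjusted p = 0.340). Nmur2, the neuromedin receptor of neurons, was at 1.78 ± 0.557 and 2.04 ± 0.509 (0.20, adjusted p = 0.691), and Trhr at 4.51 ± 0.591 and 4.60 ± 0.352 (0.03, adjusted p = 0.900). Trhr, the receptor of Trh, was thus at a higher level per length than Trh itself in every library. The peptide genes Pyy, Ppy and Gast and the receptor gene Npy6r were listed at 0 in all libraries. Sstr5, under the filter, had 0.0000 to 0.0211 FPKM in controls and 0.0633 to 0.140 in ACD on a mean of 3 reads.

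Of 12 genes that process peptides or build their granules 1 rose and none fell, with 11 of 12 above 0 and a median of 0.15; 1.81% of all genes tested rose. It was Ctsl, cathepsin L, a protease of lysosomes that also cuts some peptide precursors. It was at 14.99, 15.08 and 13.68 FPKM in controls and at 18.45, 18.27 and 18.62 in ACD (0.34, SE 0.06, adjusted p = 0.0360). The summed astrocyte and microglia markers, of cells that also make lysosomal proteases, did not overlap between the groups either. Gfap, with means of 413 FPKM in controls and 576 in ACD, was the largest term of the astrocyte sum. Singly, 3 of 7 astrocyte and 3 of 6 microglia markers lay wholly higher in ACD, as do 13.1% of all genes. The part of these cells was not tested. The call of Ctsl was lost without control 1 or 2 or any ACD library (adjusted p of 0.0529 to 0.126). Scg2, secretogranin II, a granule protein, was at 121, 122 and 111 in controls and at 141, 158 and 172 in ACD, and missed the threshold (0.41, SE 0.09, adjusted p = 0.0502). Cpe, the carboxypeptidase that trims most neuropeptides, was at 424, 455 and 432 and at 524, 576 and 537 (0.32, SE 0.07, adjusted p = 0.0525). With voom both passed, with adjusted p of 0.0182 for Scg2 and 0.0231 for Cpe. Pcsk1n, an inhibitor of the convertase Pcsk1, was at 224 ± 19.3 and 281 ± 22.4 (0.33, adjusted p = 0.0958), and the granule protein gene Chgb at 77.0 ± 5.70 and 96.2 ± 9.11 (0.32, adjusted p = 0.0991). The prohormone convertases Pcsk1 (0.14) and Pcsk2 (0.05) and the amidating enzyme Pam (0.15) had adjusted p of 0.414 to 0.768.

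**Figure D4:**
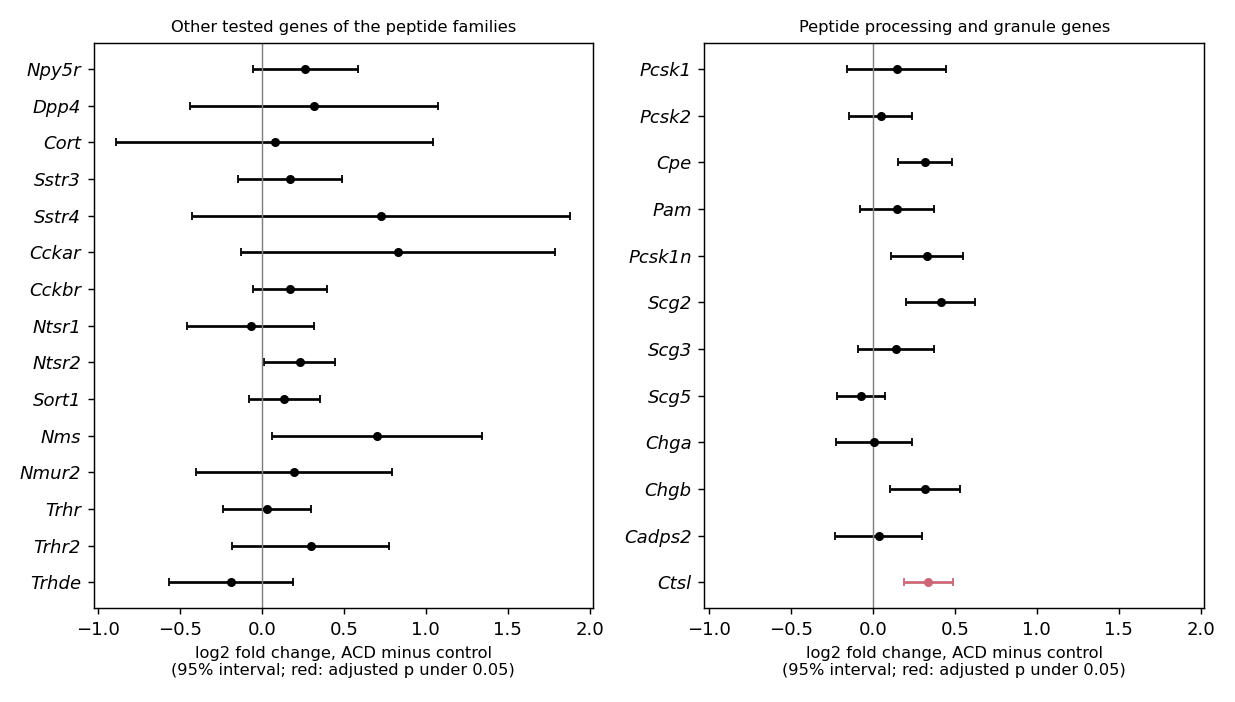
Log2 fold change of ACD minus control with 95% intervals for 15 other tested genes of the peptide families (left) and 12 processing and granule genes (right), on the log2(FPKM + 0.1) scale. Ctsl, at 0.34 and drawn in red, passed the test. Ntsr2, Nms, Scg2, Cpe, Pcsk1n and Chgb have intervals above 0 but did not pass.

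For scale, Pdyn, the dynorphin precursor of dorsal horn inhibitory neurons, named here after its values were seen, was at 4.44, 3.77 and 3.81 FPKM in controls and at 6.07, 6.74 and 7.18 in ACD, and passed in the same fit (adjusted p = 0.0169), though not without ACD 2 or without ACD 3 (adjusted p of 0.0592 and 0.0688). Its difference of 0.72 lies above the upper interval bounds of Npy (0.47), Npy1r (0.54), Npy2r (0.63) and Sstr1 (0.52). It also lies above those of Sstr2 (0.40), Cck (0.45), Nts (0.42) and Trh (0.54). The intervals of Sst and Nmu, with upper bounds of 0.78 and 0.96, include it. The interval of Pdyn itself, 0.48 to 0.96, overlaps those of Npy1r, Npy2r, Sst, Sstr1, Nmu and Trh. Whether Pdyn differs from these members in its response was not tested. Among the inhibitory neuron markers Slc32a1, the vesicular transporter for GABA and glycine, was at 51.3 ± 7.26 and 69.4 ± 6.48 (0.44, adjusted p = 0.0847), and none of 13 tested passed.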

How the data were processed

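The deposited values are FPKM made by the authors, 1 table per library. Per the submitters' processing notes the tools included featureCounts 1.5.0-p3, HISAT2 2.0.5 and DESeq2 1.16.1, with the build mm10; no source used here gives the annotation release or the strand setting. The median ratio over genes was the same in all 6 libraries, so the deposited FPKM are already scaled that way. Symbols were matched for 54409 of 54532 identifiers, and exon lengths and positions came from GENCODE M21 (GRCm38, the build of mm10). FPKM times exon length gave whole reads, within 0.05, for 96.9% of values above 0; for all 10 members all 6 values were whole. At the scaled library sizes 1 read in a transcript of 2 kb is worth 0.0247 to 0.0296 FPKM.

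ACD and control were compared with limma 3.58.1 in R 4.3.3 (trend and robust) on log2(FPKM + 0.1), for genes averaging at least 0.1 FPKM over the libraries, with Benjamini-Hochberg adjustment over all 21369 genes and a threshold of 0.05. Fold changes are on that scale, which understates changes of low genes. The members, lists and tests were chosen with earlier results of these data known. Named were all members; from each family or processing list up to 4 genes that passed, or the 1 with the smallest p; the 3 genes most like Npy and Sst; others were chosen after their values were seen. Not every gene of that rule is given. Of 20 list totals tested by a two-sided exact permutation test, 8 reached 0.1, the smallest p that 3 against 3 allows (0.25 adjusted over the lists). The planned fits with edgeR and its TMM scaling were not run, because the files hold FPKM; voom with median ratio library sizes was added after seeing the data.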

Additional observations from a re-analysis of the deposited data

How the results depend on the processing

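Of the 15 alternatives run, median ratio scaling could change almost nothing, because the deposited FPKM were already scaled that way. No member passed under any of the 15 alternatives, and the smallest adjusted p of a member was 0.0950 (Sst without ACD 1). Npy, Npy1r, Npy2r, Sst, Sstr1, Sstr2, Cck and Nmu stayed above 0 in each, though Sstr2 came to 0.019 without ACD 3 and Npy2r to 0.043 without ACD 3 and 0.044 without control 2. Nts turned to -0.084 after TPM scaling and ranged from -0.10 to 0.20 with 1 library left out. Trh turned to -0.043 after TPM scaling and ranged from -0.18 to 0.18 with 1 library left out. The count of all genes called, 927, was 556 without a filter, 420 without the trend and robust settings, 1475 with voom, and 192 to 736 with 1 library left out (192 without ACD 3, 274 without control 1, 282 without ACD 1, 299 without ACD 2, 615 without control 2). With the replicate number as a block it was 181. Same-numbered libraries did not deviate together (correlations of -0.0277, 0.0146 and 0.00345), so the block rests on a shared number only, and it called no member. Under the block Ctsl lost its call (adjusted p = 0.0965), and Pdyn did (adjusted p = 0.0676). Ctsl also lost it without a filter, without the trend and robust settings and after TPM scaling (adjusted p of 0.0585, 0.0962 and 0.106). The causes of these changes were not tested. Depth limits Trh and Npy2r, with 26 to 81 reads per library. Recovered reads cover counting error only, and with an SE of 0.29 the difference seen in Nmu was not detectable here.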
